A study of Mus musculus with 9 samples.

Results

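The Egf receptor family and its ligands were followed in keratinocytes, the main cells of the epidermis, sorted from the skin of C57BL/6 mice at postnatal days 1, 7 and 14. The set was given by name and holds 10 of the 24532 genes in the count table: the receptors Egfr, Erbb2 and Erbb3, the ligands Areg, Ereg, Hbegf, Tgfa, Btc and Epgn, and the inhibitor Errfi1. All 10 were found, and all 10 were among the 14507 genes left by the filter on low counts. Each day had 3 libraries, and age was the only difference between groups that the labels give. The columns taken as day 1 are headed D0, an age in no title, and were assigned by elimination. The headers of all 3 days carry the letters SPF. No animal was treated, and no allele beyond the C57BL/6 strain is named. Viable cells lacking CD45.2, a leukocyte surface protein, were sorted, with no positive keratinocyte marker in the gate. The labels tie no library to an animal, so the p-values cover the spread of these libraries alone, and that spread may be technical.

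Egf receptors are membrane tyrosine kinases that pair when a ligand binds and pass the signal to the Ras-Mapk cascade. The ligands are made as membrane-anchored precursors and are released by shedding proteases. Erbb2 has no known ligand of its own and serves as a pairing partner, and Erbb3, whose kinase is impaired, binds neuregulins. Errfi1, also called Mig6, is induced by signalling and binds the receptor kinase domain to block it. In skin, Egfr signalling maintains keratinocyte proliferation and shapes hair growth, and mice without Tgfa have wavy hair.

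Epgn, Ereg, Areg and Btc are neighbours on mouse chromosome 5. The mm10 assembly places Epgn at chr5:91027517-91035212, Ereg at chr5:91074617-91093649 and Areg at chr5:91139599-91148432 on the plus strand, and Btc at chr5:91357261-91402994 on the minus strand. Tgfa lies at chr6:86195038-86275744. The receptors Egfr (chr11:16752203-16913907) and Erbb2 (chr11:98412484-98437716) share a chromosome, Erbb3 lies at chr10:128567523-128589635 and Errfi1 at chr4:150853796-150868889. Counts are over the whole gene. The strand setting of the counting is not given in the sources used here, so reads of Egfr, Erbb2, Ereg, Tgfa and Errfi1 cannot be told apart from those of genes annotated on the opposite strand within them, among them the antisense gene of Egfr (Egfros) and the protein-coding gene Mien1 at Erbb2.

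The ligands share the domain that binds the receptor, which is held by 6 cysteines. The coding stretch of that domain is shown for 5 ligands, from GENCODE transcripts on GRCm38, to set beside their levels. Hbegf was left out beforehand. Each stretch has 108 bases (36 codons), runs 5′ to 3′ from the first to the last cysteine codon, and has its cysteine codons in capitals.
Areg: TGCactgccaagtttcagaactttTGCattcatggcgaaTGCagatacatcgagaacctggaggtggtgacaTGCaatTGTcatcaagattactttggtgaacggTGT
Ereg: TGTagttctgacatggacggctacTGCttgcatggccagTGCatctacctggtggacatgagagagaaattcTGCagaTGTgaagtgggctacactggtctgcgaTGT
Epgn: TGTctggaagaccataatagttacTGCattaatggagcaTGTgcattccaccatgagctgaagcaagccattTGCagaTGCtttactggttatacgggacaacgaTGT
Tgfa: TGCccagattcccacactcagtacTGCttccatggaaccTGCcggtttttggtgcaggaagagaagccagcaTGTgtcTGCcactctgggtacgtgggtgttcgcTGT
Btc: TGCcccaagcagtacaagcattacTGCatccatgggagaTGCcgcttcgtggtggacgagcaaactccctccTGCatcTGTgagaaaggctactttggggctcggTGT
The number of codons between successive cysteines was 7, 4, 10, 1 and 8 in each of the 5 ligands. The search that found the stretches fixed the 7, 1 and 8 and held the other gaps to narrow ranges. The shared spacing is therefore mostly set by the search. Over all 108 bases, the cysteine codons included, base identity was 45.4% between Ereg and Tgfa, the lowest of the 10 pairs, and 62% between Tgfa and Btc, the highest. The chromosome 5 neighbours Areg and Ereg were identical at 53.7% of bases.

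Library totals lay between 50670191 and 62970768 counts. Libraries of the same day correlated across genes with Pearson's r of 0.982 to 0.988 on log2 CPM, against 0.873 to 0.879 between days 14 and 1. Among the marker genes, the basal keratin Krt5 had a mean level of 21980 ± 911 CPM on day 1, of 22460 ± 588 on day 7 and of 15520 ± 901 on day 14 (SD, n = 3 each). Ptprc, which encodes the protein behind the CD45.2 gate, reached no more than 9 counts. Transcripts that mark sex differed by day: Xist had 0 counts in all day 7 libraries and Ddx3y had 0 counts in all day 14 libraries, so the age and the sex of the animals cannot be told apart in any comparison with those days. In bulk RNA, fewer cells of a type and less RNA per cell cannot be told apart either. The libraries are named by the numbers in their headers, which run from 1 to 3 for day 7 and from 4 to 6 for the other days.

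Levels are given as CPM, library-scaled counts after TMM normalization, and comparisons between days come from edgeR's quasi-likelihood F test with Benjamini-Hochberg adjustment over the 14507 genes, with a change called at an adjusted p under 0.05. Each of the 10 members was higher at day 14 than at day 1. That call held for each but Erbb2 when libraries were scaled by their totals alone. Egf and Erbb4, genes of the family outside the set, were lower in that comparison (adjusted p = 0.00047 and 0.00891). Of the 10 members, 7 were higher and none lower at day 7 than at day 1, while 3 passed no threshold. At day 14 against day 7, 9 were higher and 1 was not called. At day 14 against day 1, 10 were higher. Among all genes tested, 25.5% were higher and 24% lower at day 7 than at day 1 (49.4% changed), 32.5% were higher and 35.1% lower at day 14 than at day 7 (67.6% changed), and 35.5% were higher and 38.4% lower at day 14 than at day 1 (73.9% changed). All 10 members passed the test of any difference over the 3 days, as did 82.1% of all genes. The libraries of the later day lay above those of the earlier one without overlap in 7 members at day 7 against day 1, in 9 at day 14 against day 7 and in 10 at day 14 against day 1. The shares of all genes with such an order were 30.4%, 35.3% and 36.9%. The median log2 fold change of the members was 0.62, 0.98 and 1.45 in these comparisons in turn, and over all genes it was -0.00053, -0.035 and -0.046. The comparisons share libraries, so their counts are not independent of each other.

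**Figure D1:**
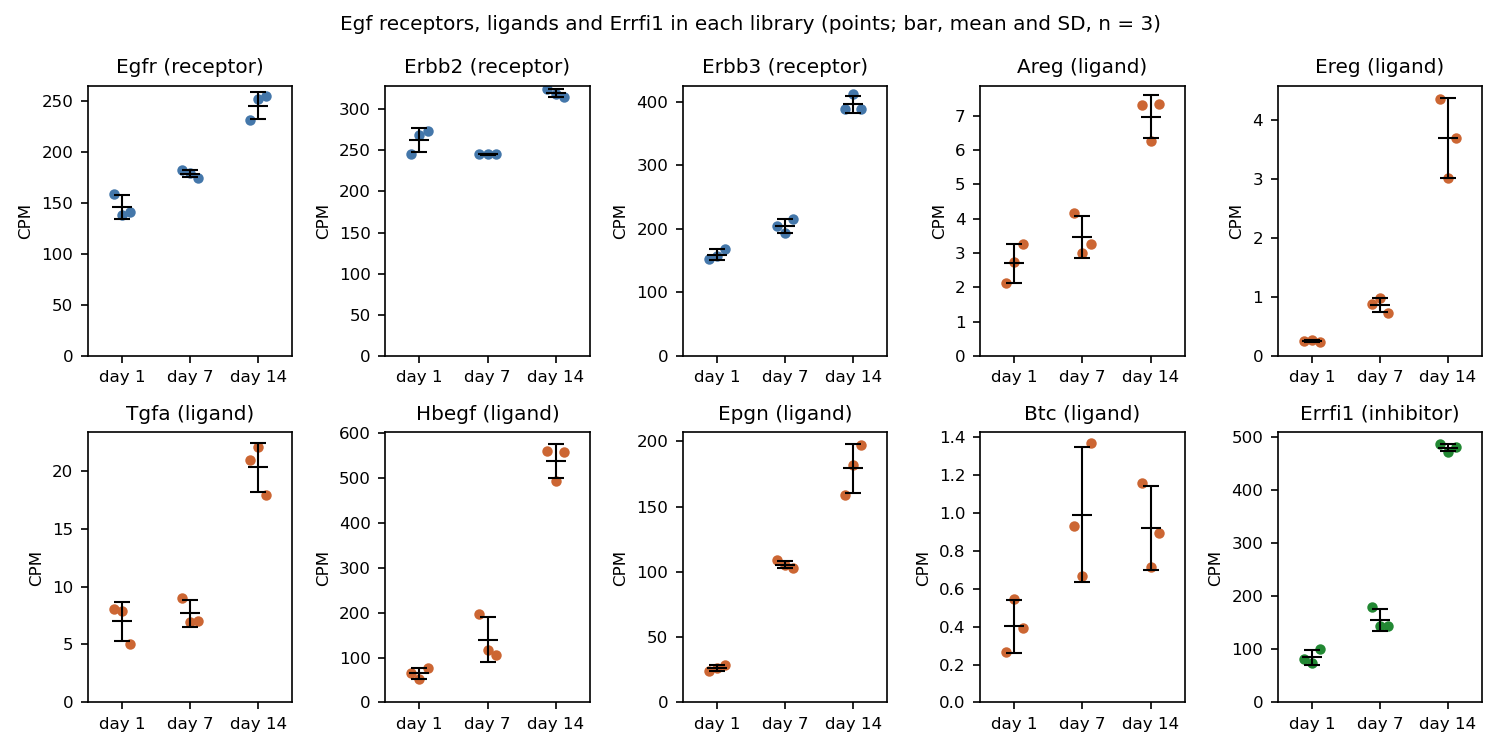
Level of each member in CPM (linear axis from 0, its own scale in each panel) by postnatal day. Points are libraries, and the bars are the mean and SD of 3 libraries. All 3 day 14 libraries lie above all 3 day 1 libraries in every panel. The mean CPM of every member but Epgn and Btc rises more after day 7 than before it, a reading with no test.

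Among the 3 receptors of the set, Erbb3 changed most. It had 152, 157 and 169 CPM at day 1, 205, 193 and 215 CPM at day 7, and 389, 412 and 389 CPM at day 14. The 3 days did not overlap. Erbb3 rose at day 7 against day 1 by 0.36 ± 0.05 on the log2 scale (SE, adjusted p = 0.000176) and at day 14 against day 7 by 0.96 ± 0.06 (adjusted p = 2.18e-08), a fold of 2.49 over both weeks. The second step was larger than the first by 0.60 ± 0.10 (adjusted p = 0.00029 for the difference of the steps).

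Egfr, the receptor that all 6 ligands can bind, had 159, 138 and 141 CPM at day 1, 182, 179 and 175 CPM at day 7, and 231, 252 and 255 CPM at day 14. Its days also stood apart from each other in order of age. The rise was smaller than that of Erbb3: 0.29 ± 0.06 at day 7 against day 1 (adjusted p = 0.0016) and 0.46 ± 0.06 at day 14 against day 7 (adjusted p = 2.55e-05), or 1.68-fold at day 14 against day 1. The 2 steps of Egfr were not called different (0.17 ± 0.10, adjusted p = 0.194).

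Erbb2, the pairing partner without a ligand, had the smallest fold change of the 10 members at day 14 against day 1. It had 246, 268 and 273 CPM at day 1, 246, 245 and 246 CPM at day 7, and 324, 319 and 315 CPM at day 14. All day 14 libraries were above all others, and the day 7 libraries were just under the lowest of day 1, an order without overlap that 30% of all genes had. The first step gave -0.10 ± 0.05 (adjusted p = 0.0999) and was not called, and Erbb2 rose in the second by 0.38 ± 0.05 (adjusted p = 1.22e-05). At day 14 against day 1 it rose 1.22-fold (0.28 ± 0.05, adjusted p = 0.000106), a call that was lost when libraries were scaled by their totals alone (0.01, adjusted p = 0.812), a scaling that put the median of all genes at -0.32 in that comparison. The first step was called lower under that scaling (-0.19, adjusted p = 0.00299), by DESeq2 (-0.11, adjusted p = 0.0409) and without library 4 of day 1 (-0.14, adjusted p = 0.0179).

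The median log2 fold change at day 14 against day 1 was 2.15 over the 6 ligands and 0.75 over the 3 receptors, a difference that was not tested. The groups overlapped, since the ligand Btc (1.20) changed by less than the receptor Erbb3 (1.31). Hbegf, heparin-binding Egf-like growth factor, which is made in wounded and stressed epidermis, lies on chromosome 18 (chr18:36504927-36515805, minus strand). It had 66.3, 51.1 and 76.3 CPM at day 1, 197, 117 and 105 CPM at day 7, and 561, 493 and 557 CPM at day 14. The days did not overlap, but library 1 of day 7 stood above the other two of that day. Hbegf rose by 1.11 ± 0.27 at day 7 against day 1 (adjusted p = 0.0139) and by 1.95 ± 0.28 at day 14 against day 7 (adjusted p = 0.000703), and 8.32-fold at day 14 against day 1. Without library 1 of day 7, the first step was 0.78 (adjusted p = 0.00629) and the second 2.27 (adjusted p = 2.26e-05). The difference of the 2 steps, 0.84 ± 0.47 (adjusted p = 0.181), was called without that library (1.49, adjusted p = 0.00587).

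Epgn, epigen, a ligand of Egfr found in epithelia, made most of its log2 change in the first week. It had 24.3, 26 and 28.6 CPM at day 1, 109, 105 and 103 CPM at day 7, and 159, 182 and 197 CPM at day 14. The libraries of each day stood well apart from those of the next. Epgn rose 4.01-fold at day 7 against day 1 (2.01 ± 0.08, adjusted p = 6.85e-09) and 1.7-fold at day 14 against day 7 (0.76 ± 0.08, adjusted p = 3.43e-06). It was the only member whose second step was called smaller than its first (-1.24 ± 0.13, adjusted p = 1.59e-05).

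Ereg, epiregulin, was scarce and had the largest fold change of the 10 members at day 14 against day 1. It had 17, 17 and 14 counts at day 1, 56, 60 and 38 at day 7, and 219, 160 and 186 at day 14, or means of 0.251 ± 0.0228, 0.866 ± 0.123 and 3.70 ± 0.679 CPM (SD, n = 3 each). No day overlapped another. The rise was 1.78 ± 0.26 at day 7 against day 1 (adjusted p = 0.000125) and 2.09 ± 0.23 at day 14 against day 7 (adjusted p = 5.51e-06), which came to 14.6-fold at day 14 against day 1.

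Areg, amphiregulin, an autocrine growth factor of keratinocytes in culture, had 2.12, 2.74 and 3.25 CPM at day 1, 4.17, 3 and 3.27 CPM at day 7, and 7.33, 6.26 and 7.34 CPM at day 14. Days 1 and 7 overlapped, and day 14 was above both. The first step was not called (0.37 ± 0.18, adjusted p = 0.11), although without library 6 of day 1 it was (0.53, adjusted p = 0.043). At day 14 against day 7, Areg rose 2-fold (1.00 ± 0.18, adjusted p = 0.000293).

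Tgfa, transforming growth factor alpha, the ligand whose loss gives wavy hair, had 8.09, 7.88 and 5.04 CPM at day 1, 9.02, 6.98 and 7.04 CPM at day 7, and 20.9, 22 and 17.9 CPM at day 14. Days 1 and 7 again overlapped. The first step was 0.13 ± 0.18 (adjusted p = 0.578), and Tgfa rose in the second by 1.40 ± 0.18 (adjusted p = 6.4e-05). The difference between its steps was 1.27 ± 0.32 (adjusted p = 0.00763).

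Btc, betacellulin, was near the floor of detection, with 18, 34 and 24 counts at day 1, 59, 41 and 71 at day 7, and 58, 38 and 45 at day 14. Every later library was above the day 1 libraries, and days 7 and 14 overlapped. It was called higher at day 7 than at day 1 (1.3 ± 0.39, adjusted p = 0.0151), and at day 14 against day 7 the difference was -0.10 ± 0.37 (adjusted p = 0.829). The first call was lost without library 4 of day 1 (adjusted p = 0.0579) or library 3 of day 7 (adjusted p = 0.0773). The rise at day 14 against day 1 (1.20 ± 0.39, adjusted p = 0.0148) was lost without library 4 of day 1 (adjusted p = 0.0598) or library 4 of day 14 (adjusted p = 0.0597).

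Errfi1, the receptor inhibitor, had 81.2, 73.4 and 100 CPM at day 1, 179, 143 and 144 CPM at day 7, and 487, 472 and 481 CPM at day 14. The days did not overlap, and the day 14 libraries were close to each other. It rose by 0.87 ± 0.12 at day 7 against day 1 (adjusted p = 0.000436) and by 1.62 ± 0.13 at day 14 against day 7 (adjusted p = 4.76e-06), 5.64-fold at day 14 against day 1. The second step was larger by 0.75 ± 0.22 (adjusted p = 0.0177), a call lost without library 2 of day 7 (adjusted p = 0.0743) or library 3 (adjusted p = 0.0774).

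In all, the 2 steps were called different in 5 of the 10 members, against 51.8% of all genes, of which 24.2% had the larger second step and 27.6% the smaller. Erbb2, Erbb3, Tgfa and Errfi1 had the larger second step, and Epgn the larger first. In 6 members, Egfr, Erbb3, Ereg, Hbegf, Epgn and Errfi1, every day 14 library was above every day 7 library and every day 7 library above every day 1 library, an order that 14.2% of all genes had.

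**Figure D2:**
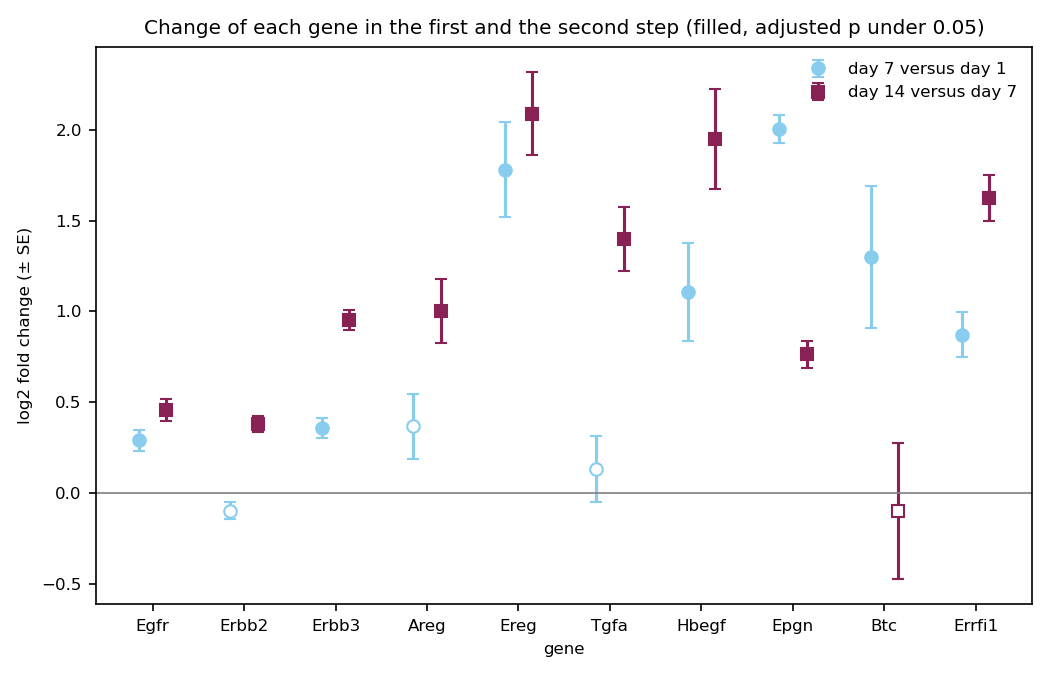
Log2 fold change (± SE) of each member at day 7 versus day 1 (circles) and at day 14 versus day 7 (squares). Filled symbols have an adjusted p under 0.05. Epgn and Btc have the larger first step, and the second step of Btc is at -0.10, while the first step of Erbb2 is also at -0.10.

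Levels of different genes were compared per length, as CPM per kb of annotated exon (merged coding transcripts of GENCODE M21). At day 1 Erbb2 led at 52.3 ± 2.85 CPM per kb (SD, n = 3). Hbegf, Erbb3 and Errfi1 followed at 27.2 ± 5.34, 26.5 ± 1.49 and 26.3 ± 4.29 CPM per kb, with libraries that overlapped between neighbours. Epgn (14.6 ± 1.18 CPM per kb) and Egfr (13.3 ± 1.06 CPM per kb) overlapped too, as did Areg (2.22 ± 0.47 CPM per kb) and Tgfa (1.55 ± 0.376 CPM per kb). Btc (0.14 ± 0.0489 CPM per kb) and Ereg (0.0608 ± 0.00553 CPM per kb) stood last. The annotated exons of Egfr span 10954 bases, of which 3630 are coding in its longest form, so its place depends on the length used. Other orders turned too: per kb of coding sequence, Hbegf (103) stood before Erbb2 (69.6) at day 1.

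At day 7 Hbegf, at 58.6 ± 21.1 CPM per kb, overlapped Epgn, at 58.4 ± 1.64. Erbb2 at 49 ± 0.136 and Errfi1 at 48.1 ± 6.36 CPM per kb overlapped as well, and Erbb3 at 34 ± 1.79 and Egfr at 16.3 ± 0.301 CPM per kb came after them without overlap. At day 14 Hbegf stood first at 226 ± 16 CPM per kb, ahead of Errfi1 at 148 ± 2.31 and Epgn at 99.2 ± 10.4. Erbb3 (65.9 ± 2.24 CPM per kb) and Erbb2 (63.7 ± 0.932 CPM per kb) overlapped, and Egfr was at 22.4 ± 1.19 CPM per kb. Areg (5.74 ± 0.512 CPM per kb), Tgfa (4.48 ± 0.475), Ereg (0.896 ± 0.164) and Btc (0.321 ± 0.0773) followed without overlap, so Ereg and Btc had changed places since day 1. Per kb of coding sequence, Epgn (393) stood before Errfi1 (347) and Tgfa (42.5) before Areg (9.38) at day 14, and Tgfa stood before Areg on the other days as well.

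**Figure D3:**
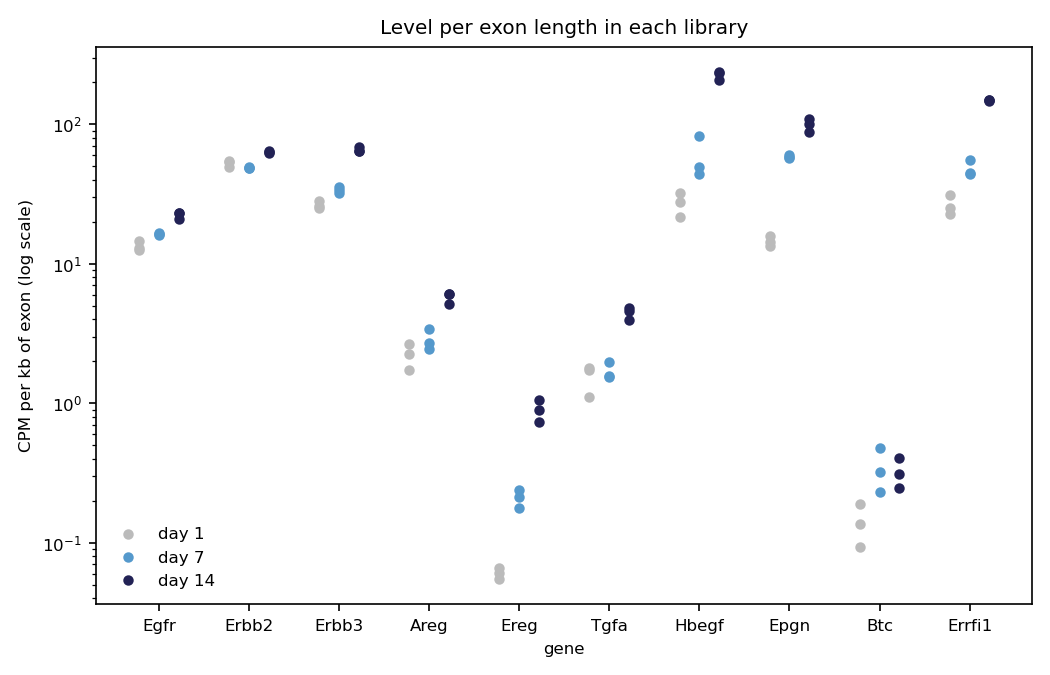
CPM per kb of exon of each member in every library on a log axis, with days 1, 7 and 14 from left to right within a gene. At day 14 Hbegf is at 226 and Epgn at 99.2 CPM per kb on average, above Erbb2 at 63.7, and at day 1 both are below it. In all libraries, Areg, Tgfa, Ereg and Btc stay below Egfr.

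Summed over the 6 ligands of the set, transcripts came to 45.1, 40.2 and 51.9 CPM per kb in the day 1 libraries. The sums were 149, 112 and 106 CPM per kb at day 7, and 336, 319 and 355 CPM per kb at day 14. The 3 receptors together came to 88.9, 92 and 95.5 CPM per kb at day 1, 99.7, 97.3 and 101 CPM per kb at day 7, and 150, 155 and 151 CPM per kb at day 14. The ratio of the ligand sum to the receptor sum was 0.495 ± 0.0545 at day 1, 1.23 ± 0.232 at day 7 and 2.22 ± 0.15 at day 14 (SD, n = 3 each), with no overlap between days. Per kb of coding sequence, an alternative chosen after the data were seen, the ratio was 1.21, 2.9 and 5.24 on these days, and so it increased with age under each of the lengths tried while its level differed. These sums are descriptions with no test, and a sum over ligands follows its most abundant members.

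Hbegf and Epgn made up most of the ligand sum, and their balance turned and returned. Hbegf held 59.1 ± 4.8% of ligand CPM per kb at day 1, 47 ± 7.48% at day 7 and 67.1 ± 2.69% at day 14. Epgn held 32.1 ± 3.28%, 48.7 ± 7.26% and 29.5 ± 2.83% on the same days. At day 7 Epgn exceeded Hbegf in libraries 2 and 3, with 51.9% and 53.8% of the sum, but not in library 1, where it held 40.4% and Hbegf 55.6%. The other 4 ligands together held 3.4 ± 0.226% of the sum at day 14, against 8.81 ± 1.56% at day 1.

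Among the receptors, Erbb3 held 28.7 ± 0.645% of receptor CPM per kb at day 1, 34.2 ± 1.22% at day 7 and 43.3 ± 0.702% at day 14. The share of Erbb2 was 56.8 ± 1.42%, 49.3 ± 0.758% and 41.9 ± 0.999% on these days, while that of Egfr lay between 13.5% and 16.8% in all libraries. Erbb3 per Erbb2 was 0.507 ± 0.0159 at day 1, 0.694 ± 0.0351 at day 7 and 1.03 ± 0.0383 at day 14. Errfi1 per Egfr, also per kb, was 1.98 ± 0.375, 2.94 ± 0.346 and 6.63 ± 0.445, with no overlap between days.

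**Figure D4:**
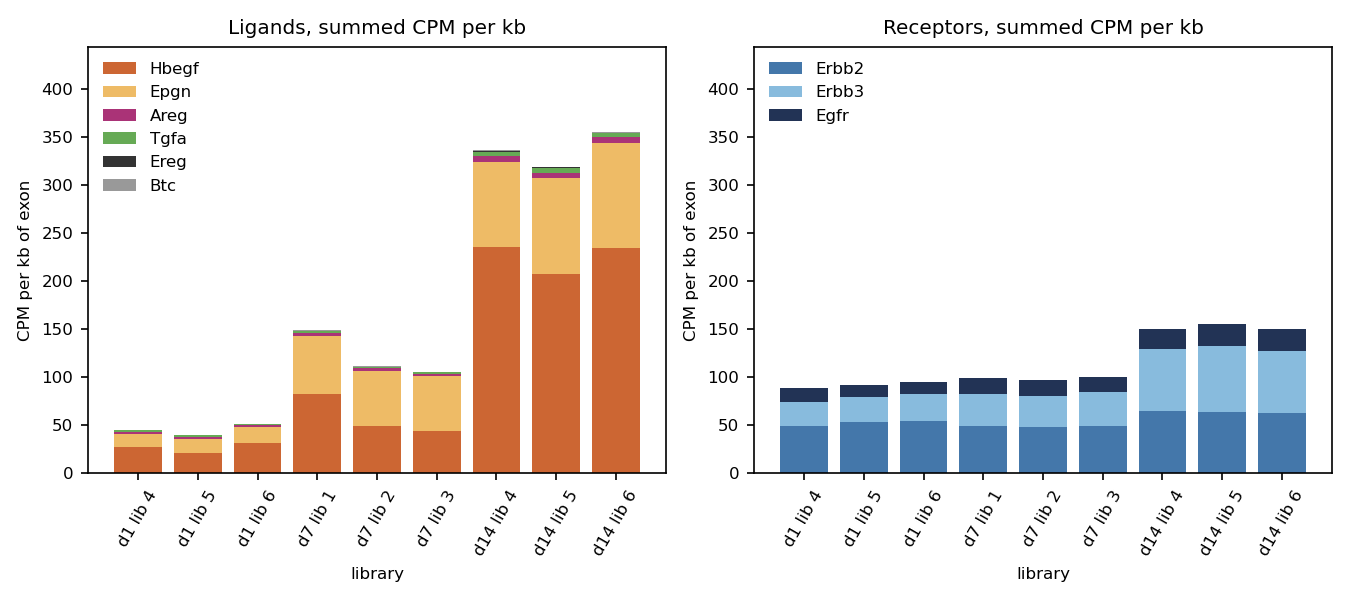
CPM per kb of exon summed over the 6 ligands (left) and the 3 receptors (right) in each library, stacked by gene, on axes from 0 to the same maximum. The ligand sum is 40.2 to 51.9 CPM per kb at day 1 and 319 to 355 at day 14, and the receptor sum 88.9 to 95.5 at day 1 and 150 to 155 at day 14.

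Promoters of the members were read for short motifs that stimulus-responsive genes often carry. RefSeq start sites on GRCm38.p6 gave 8 windows of 250 bases upstream for 7 of the members. Errfi1 had 2 of these windows, and Ereg and Erbb3 had none. Hbegf was left out beforehand, a cut that was not made in the genome-wide windows used below. The cAMP response element TGACGTCA was in 2 of these 8 windows, 1 of Areg and 1 of Errfi1, against 1.55% of 32851 windows of this length genome-wide. Both windows are printed 5′ to 3′ on the plus strand, with the element in capitals, from chr5:91139349-91139598 for Areg and chr4:150854820-150855069 for Errfi1.
Areg promoter: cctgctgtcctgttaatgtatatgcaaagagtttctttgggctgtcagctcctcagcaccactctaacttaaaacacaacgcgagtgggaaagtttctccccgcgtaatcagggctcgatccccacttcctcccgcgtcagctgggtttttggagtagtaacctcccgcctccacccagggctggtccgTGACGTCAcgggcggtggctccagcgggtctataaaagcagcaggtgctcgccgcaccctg
Errfi1 promoter: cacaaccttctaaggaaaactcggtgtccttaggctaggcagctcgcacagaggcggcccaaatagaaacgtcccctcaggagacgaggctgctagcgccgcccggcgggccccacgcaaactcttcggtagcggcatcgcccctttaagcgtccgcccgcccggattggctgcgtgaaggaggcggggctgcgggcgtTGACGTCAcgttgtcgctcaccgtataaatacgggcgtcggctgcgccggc
The element starts 61 bases before the Areg start site, at position -61, and at position -51 in the Errfi1 window. A TATAAA match lies at -31 in the Areg window and at -28 in that of Errfi1, and TATAAA was in 3 of the 8 windows against 12.4% of all. The AP-1 letters TGANTCA were in 0 of the 8 windows against 6.75% of all, and GGGCGG in 4 against 32.7%. Both strands were searched. The other Errfi1 window, chr4:150853546-150853795, had no match to any of these letters. It lies just upstream of the gene span given above, and the printed Errfi1 window lies within that span. In the printed windows, 2 of the 3 GGGCGG matches of Errfi1 overlap each other, and no other matches overlap. A match is a description of letters and not a measured site.

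Other Egf family genes were scarce in these cells and moved in both directions. Of the 6 on the list, Nrg3 had 0 counts in every library. At day 14 against day 1, 1 of the 5 tested was higher and 2 were lower, against 35.5% and 38.4% of all genes. The neuregulin Nrg2 was higher, at 5.91 ± 0.678 CPM at day 14, against 2.42 ± 0.379 CPM at day 1 (1.29 ± 0.15 on the log2 scale, adjusted p = 6.99e-06). Egf itself was lower, at 0.735 ± 0.0952 CPM at day 14 and 1.80 ± 0.264 CPM at day 1 (-1.29 ± 0.25, adjusted p = 0.00047). Erbb4, the remaining receptor of the family, was also called lower (adjusted p = 0.00891), with at most 3 counts in a day 14 library and 13 to 30 counts in the day 1 libraries. Nrg1 was lower at day 7 than at day 1 (adjusted p = 0.00531), with at most 10 counts at day 7 and 28 to 61 at day 1, and Nrg4 was not called in any comparison.

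Genes of ligand shedding, a list that includes the inhibitor Timp3, rose in part. Of the 10 on the list, 5 were higher and 1 was lower at day 7 than at day 1. At day 14 against day 7, 4 were higher and 1 lower. At day 14 against day 1, 7 were higher and 1 lower (6 and 3 with libraries scaled by totals alone). Among all genes, 25.5%, 32.5% and 35.5% were higher in these comparisons in turn, and 24%, 35.1% and 38.4% lower. Rhbdf2, an iRhom that escorts the shedding protease Adam17 to the cell surface, was at 283 ± 20.1 CPM at day 14 and 66.1 ± 4.01 CPM at day 7 (2.1 ± 0.06, adjusted p = 1.76e-10), with 40.4 ± 1.69 CPM at day 1. Adam17, the main sheddase of Hbegf, Areg, Ereg, Epgn and Tgfa, rose in the first week to 125 ± 5.59 CPM at day 7, against 79.7 ± 3.39 CPM at day 1 (0.64 ± 0.05, adjusted p = 9.63e-07), and was at 131 ± 6.27 CPM at day 14. Rhbdf1, the other iRhom, and Timp3, an inhibitor of Adam17, both rose at day 14 against day 7, by 0.83 ± 0.06 (adjusted p = 1.7e-07) and 0.72 ± 0.06 (adjusted p = 6.25e-07). Adam9 rose at day 7 against day 1 (0.45 ± 0.07, adjusted p = 0.000156).

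Of 22 feedback genes of the receptors and Ras, 10 were higher and 4 lower at day 7 than at day 1. At day 14, 12 were higher and 2 lower against day 7, and 13 higher and 4 lower against day 1. Among all genes, 25.5%, 32.5% and 35.5% were higher in these comparisons in turn, and 24%, 35.1% and 38.4% lower. The ubiquitin ligase Cblb, which marks active receptors for degradation, was at 172 ± 9.69 CPM at day 14, against 115 ± 7.33 CPM at day 1 (0.58 ± 0.06, adjusted p = 2.05e-06). The phosphatase Ptpn1 rose by 0.73 ± 0.04 (adjusted p = 4.68e-09) in the same comparison and Lrig3 by 0.60 ± 0.05 (adjusted p = 3.6e-07). Lrig1, a receptor inhibitor of epidermal stem cells, was the most abundant of the list and fell slightly at day 14 against day 7, with 372 ± 23.3 CPM at day 14 and 433 ± 43.8 CPM at day 7 (-0.22 ± 0.08, adjusted p = 0.0268). The count of feedback genes higher at day 7 than at day 1 was 6 without library 1 of day 7. With libraries scaled by totals alone it was also 6, and the balance at day 14 against day 1 turned, to 7 higher and 10 lower. Spry2 and Dusp5, negative regulators of the Erk cascade named here after their values were seen, rose in both steps. Their relatives Spry4 and Dusp4 were lower at day 7 than at day 1, by -1.90 ± 0.36 (adjusted p = 0.000843) and -1.34 ± 0.21 (adjusted p = 0.000227). At day 14 against day 1, Spry4 was lower (-0.89 ± 0.34, adjusted p = 0.0332) and Dusp4 was not called (-0.34 ± 0.20, adjusted p = 0.15). Spry2 was at 102 ± 6.38 CPM at day 14 and 22.5 ± 0.885 CPM at day 1 (2.17 ± 0.12, adjusted p = 1.52e-07), and Dusp5 at 49.8 ± 0.879 CPM at day 14 and 7.55 ± 2.12 CPM at day 1 (2.72 ± 0.23, adjusted p = 1.28e-05).

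Some of the genes that respond quickly to dissociation of a tissue moved with several members. Of 20 immediate early and heat shock genes, 7 were higher and none lower at day 7 than at day 1 (13 higher without library 6 of day 1). At day 14, 11 were higher and 4 lower against day 7, and 12 higher and 2 lower against day 1. Among all genes, 25.5%, 32.5% and 35.5% were higher in these comparisons in turn, and 24%, 35.1% and 38.4% lower. The summed level of the 20 was 24650 to 31070 CPM at day 1, 31040 to 38210 CPM at day 7 and 47860 to 51680 CPM at day 14. Dusp1, a phosphatase of this list, had 750 ± 95.3 CPM on day 1, 1069 ± 227 on day 7 and 2336 ± 103 on day 14. It is named as the gene whose pattern was most like that of Hbegf, so their likeness follows from that choice. Atf3, a stress-induced transcription factor, had 1330 ± 308, 1900 ± 183 and 4117 ± 232 CPM on these days. Jun, also on the list and more abundant than Dusp1, had 3295 ± 282, 3721 ± 352 and 5386 ± 200 CPM. At day 14 against day 1, Jun rose 1.63-fold, against 3.12-fold for Dusp1 and 3.09-fold for Atf3. Library 1 of day 7 was the highest of its day for Hbegf, Errfi1 and Areg and also for Fos, Fosb, Dusp1 and Atf3. These genes do not stand for all 20 on the list, of which Hspa1a was highest in another library of that day. Fosb, an immediate early transcription factor named here after its values were seen, was at 8478 ± 926 CPM at day 14, against 1229 ± 117 CPM at day 1, a 6.9-fold difference (2.79 ± 0.26, adjusted p = 5.89e-05). The chaperone Hspa1a went the other way in the second week, at 1260 ± 87.6 CPM at day 14 and 3531 ± 182 CPM at day 7. The part of these genes in the rise of the members was not tested.

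**Figure D5:**
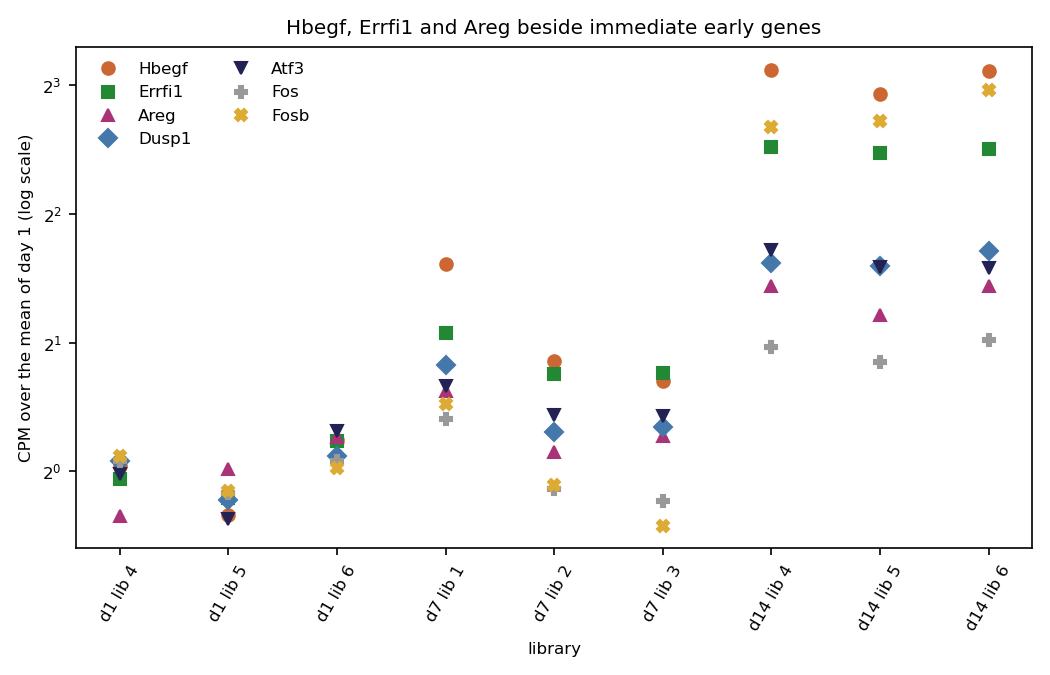
CPM of Hbegf, Errfi1 and Areg and of the immediate early genes Dusp1, Atf3, Fos and Fosb in each library, divided by the gene's mean at day 1 (log axis). Dusp1 was the gene whose pattern was most like that of Hbegf. Library 1 of day 7 is the highest of its day for all 7 genes shown, and in the day 14 libraries Hbegf, Errfi1 and Fosb lie above Dusp1, Atf3 and Fos.

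Erbb3 is also used by melanocytes and Schwann cells, other CD45.2-negative cells of skin. All 8 melanocyte markers were lower at day 14 than at day 1, with a summed level of 403 to 428 CPM at day 1, 111 to 135 CPM at day 7 and 16.0 to 19.9 CPM at day 14. All 4 of the tested Schwann markers were lower too, at 8.64 to 9.94 CPM at day 1 and 1.75 to 2.04 CPM at day 14, and Cdh19 had 0 counts in each day 14 library. Erbb3 rose between the same days. At day 14 against day 7, where its step was larger, 7 melanocyte markers were lower and 1, Mitf, was higher (0.77 ± 0.15, adjusted p = 0.000663). The keratinocyte markers summed to 45650 to 51760 CPM at day 1, 46600 to 49160 CPM at day 7 and 35820 to 37700 CPM at day 14. That sum follows its abundant keratins. Of the 8 keratinocyte markers, 3 were higher and 3 lower at day 14 than at day 1, with a median log2 fold change of 0.25. Of all genes, 35.5% were higher and 38.4% lower in that comparison. The fibroblast markers summed to 122 to 225, 17.2 to 61.6 and 16.8 to 37.2 CPM on the 3 days in turn. The leukocyte markers summed to 4.44 to 4.99 CPM at day 1 and 12.4 to 13.1 CPM at day 14, led by Cd68, and the endothelial, smooth muscle and Merkel markers to at most 5.1 CPM in any library. The sum of the sebaceous markers, 52.5 to 60.6 CPM at day 1 and 223 to 226 CPM at day 14, followed Scd1 alone. The part of these cells in the members' changes was not tested.

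The genes whose pattern over the 9 libraries was most like each member were found by Pearson's r of log2 CPM among 9345 genes with a mean of at least 10 CPM. The libraries fall in 3 days, so a high r is common: 981 genes had r above 0.95 with Hbegf, 1267 with Errfi1, and 2 with Btc. Hbegf was most like Dusp1 (r = 0.996) and the polo-like kinase gene Plk2 (0.996), and Errfi1 was most like Fam46b (0.997) and Rnd3 (0.997). Egfr was most like Phactr2 (0.996) and Dsg3 (0.994), a desmosomal cadherin of basal keratinocytes. Erbb2 was most like Esrp2 (0.994), an epithelial splicing regulator, and Cdr2 (0.993), and Erbb3 was most like Pitpnm1 (0.999) and Trim26 (0.998). Epgn was most like Rnf165 (0.998) and Scin (0.998), Areg like Zfp593 (0.993) and Ier5l (0.987), and Ereg like Rhod (0.995) and Ndrg2 (0.995). Tgfa was most like Ranbp2 (0.987) and Mtmr4 (0.984), and Btc like Arfgap2 (0.965) and Rrp7a (0.964).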

How the data were processed

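RNA of sorted keratinocytes was made into stranded mRNA libraries and sequenced on a NovaSeq instrument, per the labels' protocols. The submitters' processing notes name HISAT2 2.1.0, StringTie 1.3.4d, Trimmomatic and bcl2fastq 2.20.0, with mm10. The counting tool was not given in the sources used here, nor were its strand setting and annotation. Raw counts were deposited by the authors, 1 whole number a gene and library, per the file headers. The 18 deposited TPM and FPKM columns were not used. In place of deposited TPM, which the design named for levels per length, TMM-scaled CPM were divided by the kb of merged exons of GENCODE M21 basic coding transcripts. Columns headed D0, which matches no title, were taken as day 1 by elimination. The day 7 headers have another style. Header numbers cannot be tied to titles.

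Counts were scaled by TMM, filtered with filterByExpr and tested in 1 edgeR 4.0.16 model over all 9 libraries (R 4.3.3, quasi-likelihood F test, robust), with Benjamini-Hochberg adjustment over 14507 genes. The SE is the log2 fold change divided by the square root of F. The 3 pairs of days, the difference of the 2 steps and any difference over 3 days were tested. Alternatives were other scalings, no filter, DESeq2 1.42.0, limma-voom (limma 3.58.1), a fold minimum of 1.5, 2-day fits, header numbers as a block, other lengths (longest transcript, coding length) and leaving out each library. The edgeR fit was also run on simulated counts, for day 7 and day 14 against day 1 only, with the outcome not reported here.

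The members and lists were chosen with earlier results of these data known. Named are all members, up to 3 changed genes of highest mean CPM per list and pair of days, all other Egf family genes, check genes, and the 2 genes most like each member (log2 CPM, prior count 1). Where fewer are given, they are taken from these, and some genes are not reported here. Gene coordinates are mm10 from RefSeq, strands and overlapping genes are from GENCODE M21, and promoters are from RefSeq on GRCm38.p6.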

Additional observations from a re-analysis of the deposited data

How the results depend on the processing

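With a fold minimum of 1.5, 3 members in place of 7 were higher at day 7 than at day 1, the calls of Egfr, Erbb3, Hbegf (adjusted p = 0.131) and Btc (adjusted p = 0.118) being lost. Under that minimum Egfr and Erbb2 were not called at day 14 against day 7, nor Erbb2 and Btc (adjusted p = 0.0758) at day 14 against day 1. Members lower at day 7 than at day 1 numbered 1 (Erbb2) in place of 0 with scaling by library totals alone and with DESeq2. Leaving out each library in turn gave 6 to 8 members higher and 0 to 1 lower at day 7 against day 1, 9 to 9 higher and 0 to 0 lower at day 14 against day 7, and 9 to 10 higher and 0 to 0 lower at day 14 against day 1. It gave 9 to 10 members changed over the 3 days, and 4 to 7 whose steps differed. Values near 0 changed sign: Tgfa at day 7 against day 1 lay between -0.053 and 0.25 with each library left out in turn (-0.053 without library 6 of day 1 and -3.56e-05 without library 1 of day 7), and Btc at day 14 against day 7 between -0.33 and 0.19 (0.19 without library 3 of day 7 and 0.05 without library 5 of day 14). The cause of these changes was not tested. For the difference of the steps, Areg was called without library 4 of day 1 (adjusted p = 0.04) or library 1 of day 7 (adjusted p = 0.0426), and Hbegf by limma-voom (adjusted p = 0.0491). Per kb of coding sequence, Erbb3 per Erbb2 was 0.57, 0.782 and 1.16 and Errfi1 per Egfr 1.53, 2.28 and 5.14 at days 1, 7 and 14, and per kb of the longest transcript they moved by less than the SD. Of the alternatives for single members, 643 kept their direction and side of the threshold, 15 lost a call, 8 gained one and 4 changed sign.

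Over all genes, 3695 were higher and 3476 lower at day 7 than at day 1, 4713 higher and 5095 lower at day 14 than at day 7, and 5150 higher and 5566 lower at day 14 than at day 1. Scaling by library totals alone gave 2658 and 4789, 3563 and 6653, and 3632 and 7762, and put the median log2 fold change of all genes at -0.0995, -0.21 and -0.319. The fold minimum gave 775 and 1013, 1907 and 1286, and 2619 and 2435. Header numbers 4, 5 and 6 are shared by days 1 and 14, where the deviations of same-numbered libraries had r of 0.0122, 0.00654 and 0.0923. Libraries of different numbers were not compared in this way, so these r alone cannot decide whether the numbers pair animals. The labels do not say that they do, so the numbers were not taken as pairs. With them as a replicate block, 10 members were higher and 0 lower at day 14 than at day 1, and 4888 and 5282 of all genes.

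Depth limits Btc and Ereg at day 1, with at most 34 counts in a library.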

Other observations

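Genes of the cascade behind the receptors moved in both directions. Of 29 adaptors and Ras-Mapk core genes, 7 were higher and 9 lower at day 7 than at day 1. At day 14, 17 were higher and 8 lower against day 7, and 17 higher and 8 lower against day 1. Among all genes, 25.5%, 32.5% and 35.5% were higher in these comparisons in turn, and 24%, 35.1% and 38.4% lower. The medians of the 29 were -0.02, 0.23 and 0.24 on the log2 scale. When libraries were scaled by totals alone, 11 of the 29 were higher at day 14 than at day 7. At day 14 against day 1 the balance turned under that scaling, to 10 higher and 12 lower. Stat3, a transcription factor activated by the receptors, was the most abundant and was at 497 ± 29.3 CPM at day 14, against 225 ± 9.52 CPM at day 1 (1.15 ± 0.06, adjusted p = 2.82e-09). Pik3r2, a regulatory subunit of phosphoinositide kinase, fell by 0.57 ± 0.06 on the log2 scale in the same comparison (adjusted p = 2.67e-06).

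Among 19 transcripts known to be induced by the pathway, 4 were higher and 8 lower at day 7 than at day 1. At day 14, 10 were higher and 4 lower against day 7, and 10 higher and 6 lower against day 1. Among all genes, 25.5%, 32.5% and 35.5% were higher in these comparisons in turn, and 24%, 35.1% and 38.4% lower. Mcl1, a survival gene, was at 876 ± 62.4 CPM at day 14 and 232 ± 19.3 CPM at day 1 (1.92 ± 0.07, adjusted p = 1.55e-10). Myc rose in both steps, by 1.12 ± 0.16 at day 7 against day 1 (adjusted p = 0.000672) and by 0.67 ± 0.16 at day 14 against day 7 (adjusted p = 0.00577). Krt16, a keratin of activated epidermis, fell at day 14 against day 1 by 0.58 ± 0.20 (adjusted p = 0.0331). Has3, a hyaluronan synthase chosen after its values were seen, was at 3.01 ± 1.08 CPM at day 14, against 110 ± 10.3 CPM at day 1 (-5.20 ± 0.21, adjusted p = 9.67e-08). These lists were chosen with earlier results known, and several of their genes respond to other signals as well.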
